A study of Mus musculus with 4 samples.

Results

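The genes described here are 6 matrix metalloproteinases (Mmp2, Mmp9, Mmp11, Mmp14, Mmp19 and Mmp23) and the 4 tissue inhibitors of metalloproteinases (Timp1, Timp2, Timp3 and Timp4), 10 of the 18193 genes named on the array. They were represented by 25 probe sets, which are all those that the array annotation assigns to exactly 1 of these genes. RNA came from C2C12, an established mouse myoblast line, in 4 cultures that were all stably transduced with the lentiviral vector pLKO.1 and kept in medium with 20% serum and 2 µg/ml puromycin. The 2 control cultures expressed a hairpin RNA that some labels call scramble and others shLuc, and the 2 knockdown cultures expressed a hairpin against Sfmbt1 (shSFMBT1), a chromatin protein gene. The question was how RNA levels differ when Sfmbt1 is lowered. Each culture was hybridised to 1 Affymetrix array. The labels name a single hairpin against Sfmbt1, and they do not say whether each culture was transduced on its own, so p-values measure the spread between these cultures.

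Matrix metalloproteinases are zinc-dependent enzymes that cut collagens, laminins, growth factors and cell surface proteins, and most are made as inactive precursors. TIMP proteins bind the active site and block it. MMP14, which is anchored in the plasma membrane, activates the precursor of the gelatinase MMP2, and TIMP2 serves as the bridge between them, so this inhibitor takes part in activation as well. In muscle these enzymes are known for remodelling the matrix around fibres and for the migration and fusion of myoblasts.

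Signals are linear MAS5 values in arbitrary units. Differences are knockdown minus control on the scale log2(signal + 16), which understates the change of dim genes. A gene or probe set was called higher or lower where the Benjamini-Hochberg adjusted p of limma's moderated test lay under 0.05, over all 12866 genes (each by its brightest probe set) or over all 22893 probe sets. An exact permutation test of 2 against 2 arrays cannot give a p below 0.333. The background limit of an array, set at the 95th percentile of its 27 bacterial controls, lay between 42.9 and 69.3 and was highest on knockdown replicate 1, where 56.2% of probe sets exceeded it against 64.3% to 67.6% on the other arrays. Sfmbt1 signal was lower in the knockdown in each of its 5 probe sets, and the groups did not overlap in any of them. In probe set 1422893, for example, it was 230.3 and 291.5 in the control against 89.2 and 139 in the knockdown (adjusted p = 0.0594, limma), and of the 4 tested probe sets 1422894 passed (adjusted p = 0.0219, limma). In 1422894 knockdown replicate 2 lay within background, as did all 4 arrays in 1443853, the probe set not tested. The brightest, 1429749, had a knockdown mean of 67.7% of the control, and 1455412 one of 69.2%. By 1429749 the gene test did not call Sfmbt1 (limma adjusted p = 0.316).

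Mmp14 and Mmp23 fell in the knockdown, and no member gene was called higher. Of the 10 genes, 9 passed the filter on dim probe sets, and 2 of these 9 were called lower and 0 higher by limma (4 lower and 2 higher at an unadjusted p under 0.05), where 1.61% of all genes tested were called lower and 1.44% higher. Of the 9, Mmp9, Mmp23 and Timp4 had a knockdown mean under the filter's limit, a signal of 57.3, and passed through their control arrays, so a lower value there is built into passing and the count is a description. The members were also chosen with earlier results of these data known, and the called genes, Mmp14 and Mmp23, were known to differ. The shares over all genes are therefore no test of this count. The split over all genes, 185 higher and 207 lower, was 339 and 218 with each array centred on its median, 407 and 264 without knockdown replicate 1 and 167 and 450 without knockdown replicate 2. Of the 20 member probe sets past the filter, 4 were called lower and 0 higher, with 1.43% and 0.961% of all probe sets called in these directions. All 4 calls were in metalloproteinases, 3 in probe sets of the same gene, Mmp14, and 1 in Mmp23. The 8 tested metalloproteinase probe sets had differences from -1.97 to 0.53, while the 12 tested TIMP probe sets ranged from -0.51 to 0.42. The low ends are Mmp23 and Timp4, which passed through their control arrays. Probe sets of the same gene are not independent, and a difference between the families was not tested. The control and knockdown arrays did not overlap in 10 of all 12 metalloproteinase probe sets (8 with the knockdown lower) and 9 of all 13 TIMP probe sets (3 with the knockdown lower), against 41.7% of the 34945 probe sets that carry 1 gene. These counts include dim probe sets, such as Mmp23 1417282, within background in the knockdown, and Timp4 1423405, within background on all 4 arrays. With members chosen on known results, that share is no test of these counts either.

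**Figure D1:**
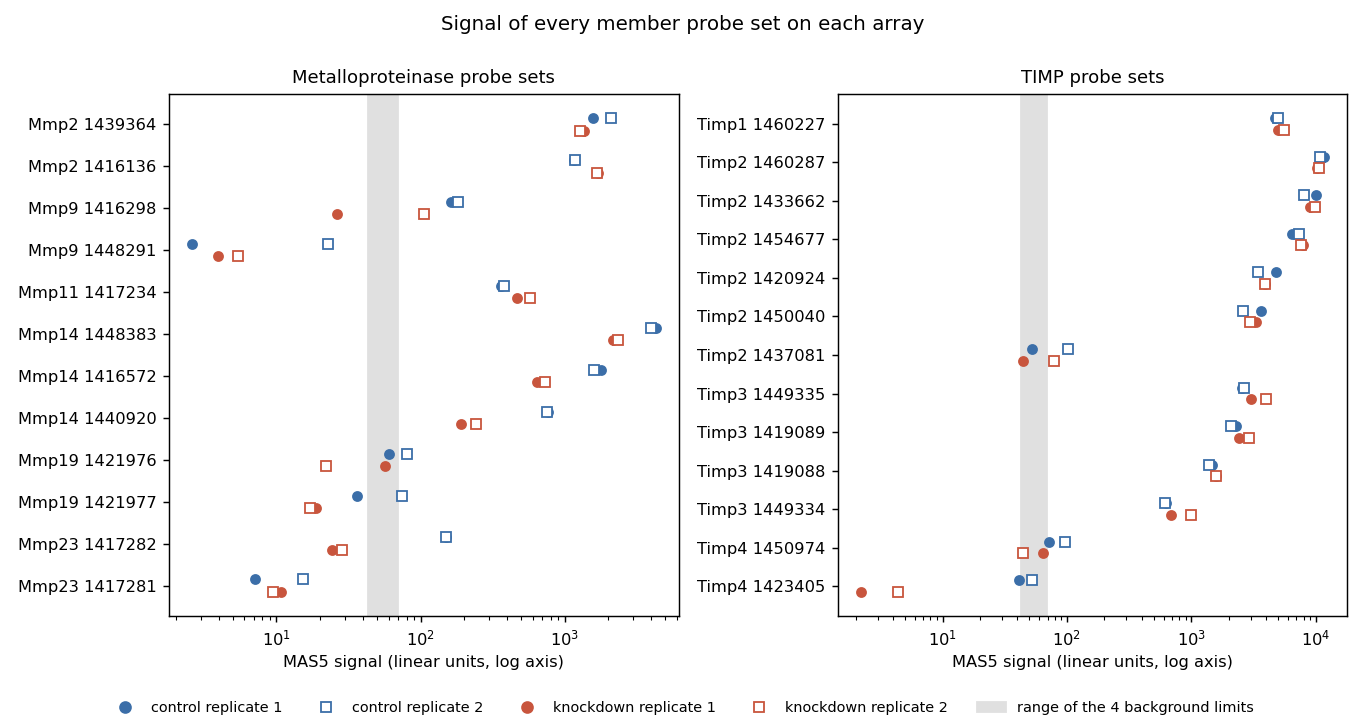
MAS5 signal (horizontal log axis, linear units) of all 25 member probe sets on the 4 arrays, metalloproteinases on the left and TIMPs on the right, with control arrays in blue and knockdown arrays in red. The grey band spans the background limits of the arrays, from 42.9 to 69.3. The knockdown points of the 3 Mmp14 probe sets and of Mmp23 probe set 1417282 lie to the left of their control points.

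Mmp14, the membrane-anchored activator of MMP2, fell in each of its 3 probe sets, and its signal stayed well above background on every array. In the brightest, 1448383, the control arrays read 4278 and 3949 and the knockdown arrays 2155 and 2345. Both knockdown arrays lay below both control arrays, and the knockdown mean was 54.7% of the control mean (4114 ± 233 and 2250 ± 134, SD, n = 2 each). In the gene test Mmp14 differed by -0.87 log2 units (SE 0.12, 95% interval -1.13 to -0.61, limma adjusted p = 9.15e-04).

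The other Mmp14 probe sets showed a larger drop. Probe set 1416572 read 1793 and 1598 in the control against 647.1 and 724.9 in the knockdown, 40.5% of the control (log2 -1.29, SE 0.14, limma adjusted p = 0.0010). Probe set 1440920 read 766.2 and 757.1 against 190.4 and 244.3, 28.5% of the control (log2 -1.75, SE 0.18, limma adjusted p = 8.27e-04). The direction was the same in all 3, while the size ran from 54.7% to 28.5% of the control. Between the brightest pair the unequal size did not pass a limma test over the 5828 genes with at least 2 tested probe sets (log2 0.42, 95% interval 0.01 to 0.82, adjusted p = 0.457), a test added after the values were seen that called 0 genes, with 621 at an unadjusted p under 0.05. That pair is 1448383 and 1416572, and the wider contrast of 1448383 with 1440920 was not tested. Without the variance trend no Mmp14 probe set passed (adjusted p = 0.222 for the gene), a setting in which limma called 0 genes in all and 1501 at an unadjusted p under 0.05.

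The promoter of Mmp14 is shown as that of the member called lower in every one of its probe sets, beside that of Timp2, the gene of its partner protein, for which no probe set was called. The 250 bases before the start of each gene are from RefSeq (GRCm38.p6), at chr14:54431348-54431597 on the plus strand for Mmp14 and chr11:118355412-118355661 on the minus strand for Timp2. Capitals mark matches on either strand to the GC box GGGCGG and the E-box CANNTG, the motif of basic helix-loop-helix factors such as myogenin.
Mmp14: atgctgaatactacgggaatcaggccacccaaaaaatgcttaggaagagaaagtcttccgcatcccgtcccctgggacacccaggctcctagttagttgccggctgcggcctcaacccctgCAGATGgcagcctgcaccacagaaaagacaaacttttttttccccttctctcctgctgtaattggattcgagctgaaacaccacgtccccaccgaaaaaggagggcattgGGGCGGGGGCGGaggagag
Timp2: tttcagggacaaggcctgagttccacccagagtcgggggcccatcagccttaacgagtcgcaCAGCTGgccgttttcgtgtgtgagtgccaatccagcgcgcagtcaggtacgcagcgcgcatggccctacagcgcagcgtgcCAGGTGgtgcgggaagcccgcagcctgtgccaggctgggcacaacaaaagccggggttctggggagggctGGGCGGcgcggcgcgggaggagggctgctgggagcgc
The Mmp14 window held 2 GC boxes, side by side just before the start, and 1 E-box, with no overlap between the motifs. The Timp2 window held 1 GC box and 2 E-boxes. Over 32851 such windows, 32.7% held a GC box, 66.2% an E-box and 6.75% the AP-1 motif TGANTCA. That motif was in none of the 8 windows found for 7 of the 10 members. Mmp2, Mmp9 and Mmp19 had no window and were not searched. These matches describe the sequence and show neither binding nor a cause.

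Mmp23 encodes a small membrane-held metalloproteinase that is released by cutting. Its probe set 1417282 read 149.6 and 150.6 in the control against 24.1 and 28.6 in the knockdown. Both control arrays were above background and both knockdown arrays lay within it, so Mmp23 was at least 2.34-fold lower (fitted log2 -1.97, SE 0.45, limma adjusted p = 0.0252). The other probe set, 1417281, lay within background on all 4 arrays, with signals from 7.1 to 15.2, and gives no second reading. The call ended without control replicate 1 (adjusted p = 0.129), without control replicate 2 (0.124), without the filter on dim probe sets (0.109) and without the variance trend (0.0776).

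The gelatinases Mmp2 and Mmp9 were not called, though the result for Mmp2 depended on the probe set and the setting. For Mmp2, which cuts denatured and type IV collagen, the 2 probe sets went in opposite directions. Probe set 1439364, of a kind that matches several transcripts of a gene, read 1575 and 2100 in the control against 1363 and 1284 in the knockdown (log2 -0.45, SE 0.15, limma adjusted p = 0.166 over all probe sets). Probe set 1416136 read 1162 and 1179 in the control against 1711 and 1686 in the knockdown (log2 0.53, SE 0.13, limma adjusted p = 0.0540 over all probe sets). In both the groups did not overlap, once with the knockdown below and once with it above the control.

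The gene result of Mmp2 therefore turned with the choice of probe set. By the brighter probe set Mmp2 differed by -0.45 (95% interval -0.77 to -0.14, limma adjusted p = 0.137). Leaving out probe sets shared between transcripts put 1416136 in its place, and Mmp2 was then called higher (log2 0.53, limma adjusted p = 0.0445). The mean of both gave 0.04 (limma adjusted p = 0.922). By the brighter probe set the gene difference was -0.66 without control replicate 1 and -0.25 without control replicate 2. Probe set 1416136 was called higher in 8 of its 13 alternatives, where its difference ran from 0.51 to 0.57 and its adjusted p (limma) from 0.0248 with the replicate block to 0.302 without the variance trend. Within an array, the log2 signal of 1439364 exceeded that of 1416136 by 0.43 and 0.82 in the control and was below it by -0.33 and -0.39 in the knockdown. This change in the ratio of the probe sets was -0.99 log2 units (95% interval -1.53 to -0.45) and did not pass over the 5828 genes (limma adjusted p = 0.430, unadjusted p = 0.0065).

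**Figure D2:**
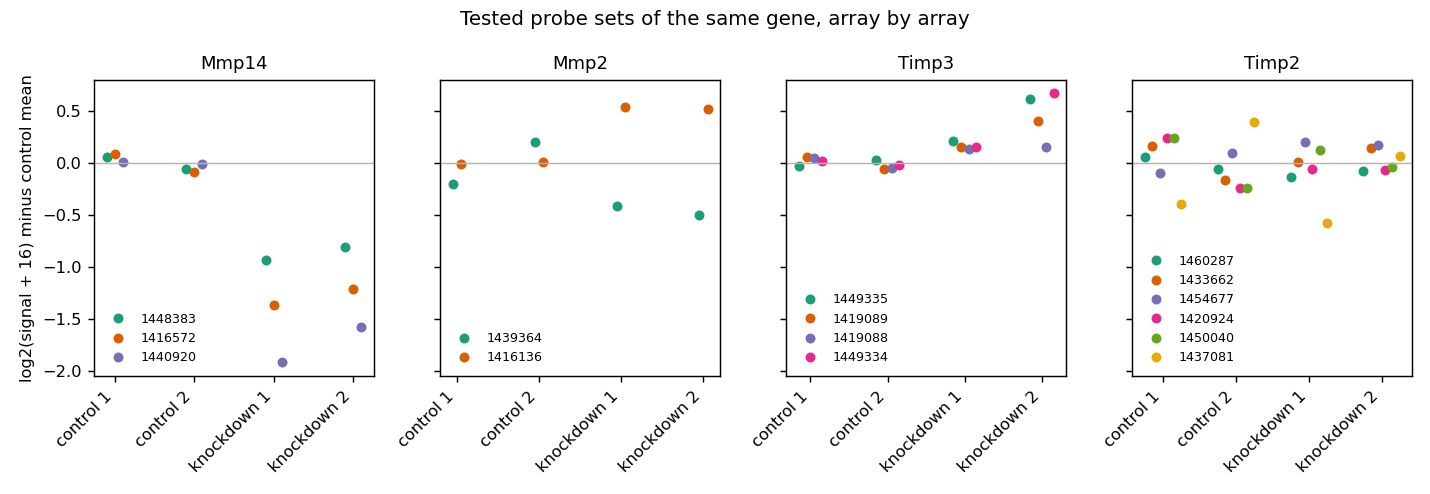
Log2(signal + 16) of each tested probe set of Mmp14, Mmp2, Timp3 and Timp2 minus its control mean (vertical axis, log2 units), for each of the 4 arrays; each colour is a probe set. The Mmp14 probe sets all lie below 0 on the knockdown arrays, those of Mmp2 lie on opposite sides of 0, and those of Timp3 lie above 0.

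Mmp9, the gelatinase typical of inflammatory cells, had 1 probe set past the filter. That probe set, 1416298, read 163.6 and 183.1 in the control but 26.1 and 105.7 in the knockdown, where replicate 1 lay within background. With background in place of that array Mmp9 was at least 1.86-fold lower, and the difference was not called (log2 -1.40, SE 0.44, 95% interval -2.34 to -0.46, limma adjusted p = 0.117). The size rests on knockdown replicate 1, the array with the highest background limit. Without it the log2 difference was -0.64 (limma adjusted p = 0.378), and without knockdown replicate 2 the array that remains lies within background, so no size is given. Probe set 1448291 lay within background throughout, at 2.6 to 22.7.

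Mmp11, or stromelysin 3, which is activated inside the cell by furin, had the highest positive gene difference among the members. Its probe set read 360.4 and 380.8 in the control against 467.6 and 575.9 in the knockdown, without overlap, and it was not called (log2 0.47, SE 0.18, 95% interval 0.09 to 0.85, limma adjusted p = 0.207). Mmp19 was not tested, because neither of its probe sets passed the filter. Probe set 1421976 read 60.2 and 80 in the control against 57 and 22.2 in the knockdown, where both arrays lay within background, a mean drop of at least 1.21-fold. This bound rests on knockdown replicate 2, since the limit on knockdown replicate 1, 69.3, lay above control replicate 1. Probe set 1421977 read 36.2 and 74.7 against 18.7 and 17.

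Of the inhibitors, Timp1, Timp2 and Timp3 had bright signals, and none of the 4 TIMP genes was called. Timp1, a soluble inhibitor, read 4683 and 4936 in the control against 4974 and 5537 in the knockdown (log2 0.13, SE 0.12, limma adjusted p = 0.690). The groups were adjacent without overlap, and the 95% interval of the difference, -0.12 to 0.38, leaves out a change as large as that of Mmp14.

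Timp2, whose protein bridges MMP14 and the MMP2 precursor, was measured by 6 probe sets. The brightest, 1460287, read 11718 and 10849 in the control against 10245 and 10697 in the knockdown (log2 -0.11, 95% interval -0.34 to 0.13, limma adjusted p = 0.729). The groups overlapped in 4 of the 6, and the differences ran from -0.25 to 0.19. The lowest came from the dim probe set 1437081 (52.6 and 102.9 against 44.7 and 78.7), with a 95% interval of -1.28 to 0.78. In the other 5 probe sets the intervals lay between -0.39 and 0.44.

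Timp3, the inhibitor that binds to the matrix and also blocks several ADAM proteases, had a positive difference in each of its 4 probe sets, from 0.15 to 0.42 log2 units, without overlap between groups. The brightest, 1449335, read 2540 and 2657 in the control against 3016 and 3992 in the knockdown. It did not pass (log2 0.42, SE 0.14, 95% interval 0.12 to 0.71, limma adjusted p = 0.147), though Timp3 was called higher when each array was centred on its median (log2 0.46, adjusted p = 0.0499). The difference rests on the knockdown arrays, at 0.62 without knockdown replicate 1, where it was called (limma adjusted p = 0.0040), and 0.21 without knockdown replicate 2 (adjusted p = 0.602). Knockdown replicate 2 read higher than knockdown replicate 1 in all 4 probe sets, for example in 1449334 (689.2 and 994.2, against 625.1 and 611.7 in the control).

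Timp4, the fourth inhibitor, was dim. Probe set 1450974 read 71.3 and 96.4 in the control against 63.8 and 44.6 in the knockdown, where replicate 1 lay within background. The difference of -0.51 log2 units had a 95% interval of -1.49 to 0.47 and was not called (limma adjusted p = 0.677). Probe set 1423405 read 41 and 52.3 against 2.2 and 4.4 and lay within the background range on all 4 arrays, so no fold is given.

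**Figure D3:**
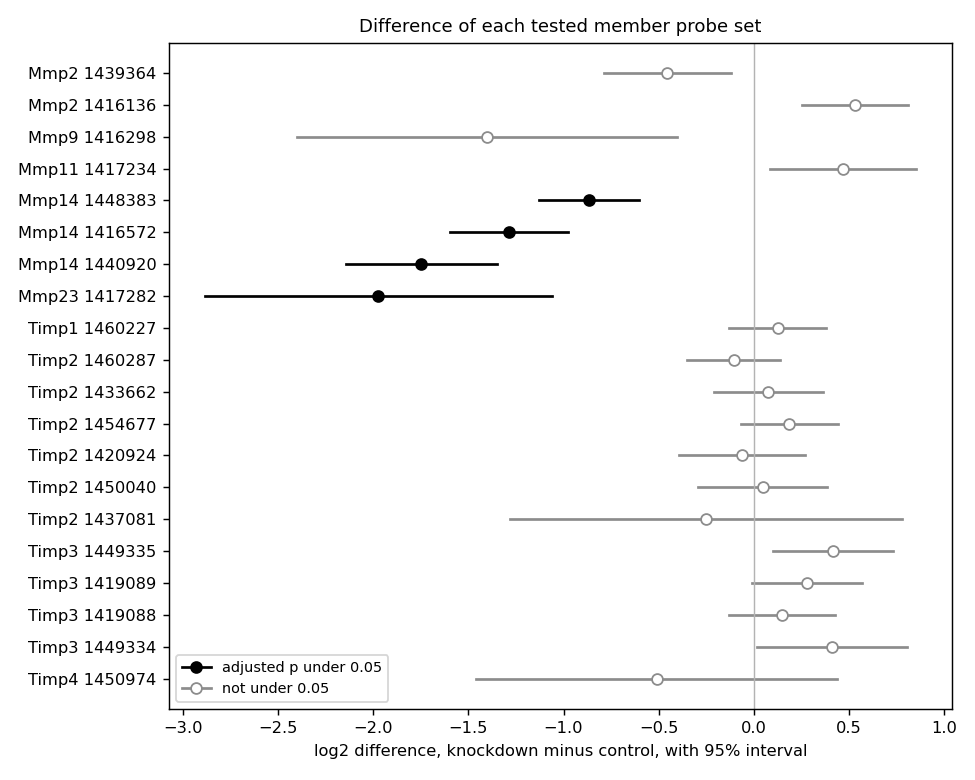
Log2 difference, knockdown minus control (horizontal axis), of the 20 member probe sets past the filter, with the 95% interval from limma; black marks an adjusted p under 0.05 and grey the rest. The 3 Mmp14 probe sets and Mmp23 are black, at -0.87 to -1.97, and the 12 TIMP probe sets lie between -0.51 and 0.42.

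The median difference of the 9 tested member genes was -0.45 log2 units, against 0.01 over all genes tested. That median is the value of Mmp2, and Mmp9, Mmp23 and Timp4, all with negative differences, were among the 9 only through their control arrays. With the other Mmp2 probe set in its place the median was -0.11, and with the mean over the probe sets of each gene it was -0.02. Genes nearest to the called members in their pattern were sought by the root mean square distance between log2 values centred over the 4 arrays. For Mmp14 they were Taf15, at a distance of 0.015, and Spaca3, at 0.018, and for Mmp23 Pitpnm2os1 and Rpusd3. For Mmp23 and Pitpnm2os1 (30.1 and 36.6) the knockdown arrays lay within background, so no distance is given for them. Spaca3 read 359.6 and 325.2 in the control against 169 and 183.9 in the knockdown (log2 -0.90, limma adjusted p = 0.0311), while Taf15, whose brightest probe set here lay within background in the knockdown at 37.5 and 40.7, was not called (adjusted p = 0.440), and its distance too rests on those signals.

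Other genes of matrix breakdown went both ways. Of 86 tested genes in 7 related lists 5 were called higher and 4 lower, where 1.44% of all genes tested were called higher and 1.61% lower. The lists were chosen with earlier results known, and of the called genes Thbs1, Thbs2 and Col1a1 were known to differ. These counts and those of each list are therefore a description. Of 12 further metalloproteinase genes on the array 5 passed the filter and none was called (limma), with Mmp10, a stromelysin, having the smallest p (70.6 and 32.2 against 111.4 and 97.8, adjusted p = 0.382). Among 22 tested ADAM and ADAMTS genes 1 rose. This was Adam10, a membrane protease that sheds Notch and cadherins, from 1459 and 1484 to 2154 and 2132 (log2 0.54, SE 0.13, limma adjusted p = 0.0316). In the plasminogen system 1 of 7 rose, the urokinase receptor gene Plaur, from 1369 and 1547 to 2012 and 2232 (log2 0.54, SE 0.13, limma adjusted p = 0.0402).

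Among 16 tested regulators of metalloproteinases 2 fell and 0 rose. They were the thrombospondin genes Thbs2, by 0.85 log2 units, and Thbs1, by 0.51, which encode matrix proteins that bind metalloproteinases. Among 12 AP-1 and ETS transcription factor genes, a class known to act on metalloproteinase promoters, 1 rose. Junb read 865 and 995.7 in the control against 1405 and 1586 in the knockdown (log2 0.68, SE 0.14, limma adjusted p = 0.0172). Of 13 cathepsin and cystatin genes 2 fell, the protease gene Ctse by 0.50 and the inhibitor gene Cst6 by 0.77. Of 11 collagen genes 2 rose and all 11 had a positive difference, with a median of 0.29, and Col1a1 and Col1a2, the chains of type I collagen, differed by 1.96 and 0.55. Over all 12866 genes tested, 6710 had a positive difference, with a median of 0.01. Col1a1 was listed when already known to differ, and for Col2a1 control replicate 2 lay within background. When arrays were centred on their medians 9 of these 86 genes were called higher and 4 lower. Without control replicate 2, 3 higher and 1 lower calls were made in these lists, and Thbs1, Ctse, Cst6, Adam10, Plaur and Col1a2 were among the calls that ended (adjusted p = 0.280, 0.398, 0.261, 0.113, 0.0516 and 0.221, limma). Without control replicate 1 Adam10 (0.157), Plaur (0.293), Junb (0.122) and Cst6 (0.0588) did not pass, and without knockdown replicate 2 Plaur (0.0842) and without knockdown replicate 1 Cst6 (0.0736) did not. With the mean over the probe sets of a gene Adam10 (0.218), Plaur (0.0653), Ctse (0.352), Cst6 (0.0565) and Col1a2 (0.153) did not pass, with quantile normalization Col1a2 (0.0516) did not, and with a pseudocount of 1 Cst6 (0.0517) did not. Without the filter on dim probe sets Col1a1 alone of these 9 was called, and without probe sets shared between transcripts Ctse stood at -0.07 (adjusted p = 0.933, limma) and Cst6 did not pass (0.0607).

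**Figure D4:**
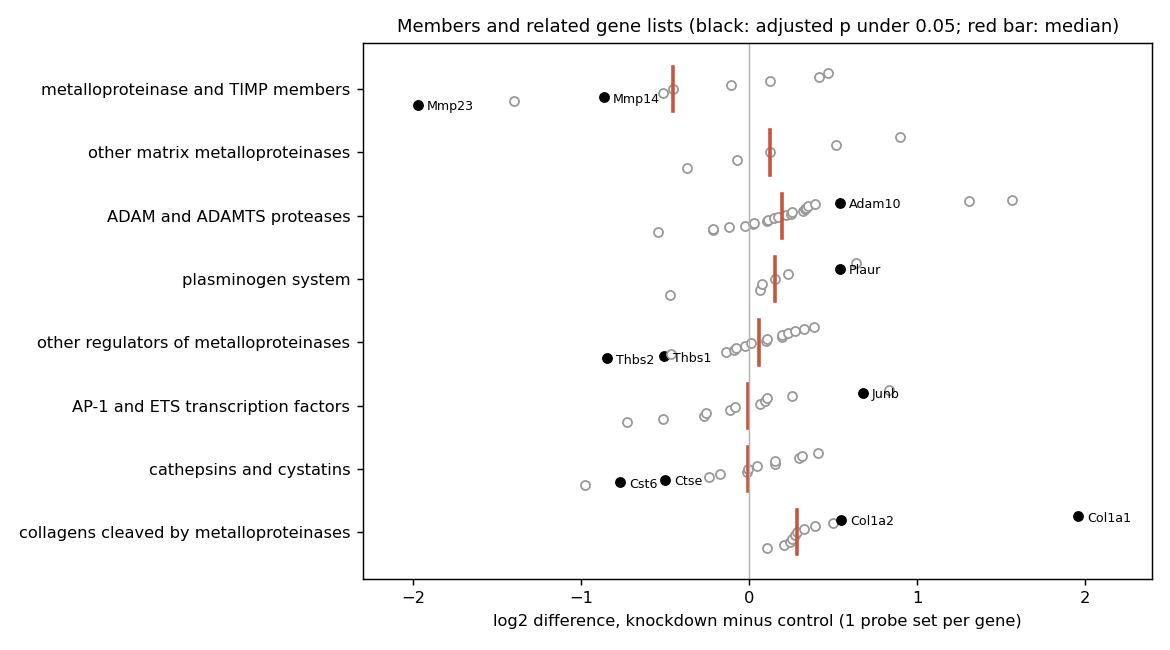
Log2 difference, knockdown minus control (horizontal axis), of each tested gene among the members and in the 7 related lists, with 1 probe set per gene; black points had an adjusted p under 0.05 and red bars mark the medians. The member median is -0.45 and that of the collagen list 0.29.

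The labelled cell type carried its markers. All 7 myoblast markers were above background on all 4 arrays, and their summed signal was 19453 and 21828 in the control against 19800 and 20449 in the knockdown. Single markers went both ways, from -0.31 log2 units for Myod1 to 0.21 for Des, with 3 of the 7 positive and 0 called. Of 7 markers of differentiated muscle, listed with their rise in these data known, 7 rose, with a summed signal of 1485 and 1560 in the control against 7579 and 7702 in the knockdown, and their part in the differences of Mmp14 and Mmp23 was not tested. Among macrophage markers, a cell type known for Mmp9, 5 of 7 were above background on all arrays, with a summed signal of 1378 and 1410 in the control against 1115 and 1322 in the knockdown, and none was called. Ptprc and Itgam lay within background on all 4 arrays. For endothelial markers, 1 of 6 was above background on all arrays (sums of 473.4 and 460.7 against 342.1 and 405.3), and for adipocyte markers 1 of 4 was (314.6 and 276.6 against 337.3 and 256.3). Of 6 fibroblast markers 5 were above background on all arrays, with sums of 13925 and 13608 against 15528 and 16185, of which Col3a1 made up most. In these bulk RNA samples fewer cells of a kind and less RNA per cell cannot be told apart.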

How the data were processed

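RNA was measured in 4 C2C12 cultures, 2 per group, with groups and replicate numbers taken from the sample titles. The deposited values are linear intensity values per probe set, for which the submitters' processing notes name MAS5 and GCOS without versions. The scaling between arrays that the authors used is not stated there. Of 45101 probe sets, 34945 carry 1 gene in the array annotation; 34741 matched RefSeq GRCm38.p6 by gene identifier and 0 symbols changed. Values were used as deposited, as log2(signal + 16). The dimmest probe sets were removed, keeping the upper 60% by mean log2 level (a signal of 57.3 or more). Groups were compared with limma 3.58.1 (lmFit, eBayes with a variance trend) in R 4.3.3, with 2 residual degrees of freedom and 13.8 from the prior, and the steps were tested on simulated data. The number of arrays limits the precision.

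A probe set below its array's background limit has only a bound: the brighter group's mean log2 value against the limit on each such array of the dimmer group, printed as "at least". Named are all members with their probe sets, the called genes of each related list or else its gene with the smallest p, Sfmbt1, and the 2 genes nearest to each called member. The members and lists were chosen with earlier results of these data known, and Mmp14, Mmp23, Thbs1, Thbs2 and Col1a1 were known to differ. Alternatives were other pseudocounts (1 and 64), filters, scalings, no variance trend, a replicate block, each array left out with the tested probe sets kept, no probe sets shared between transcripts (names ending in _a_at, _s_at or _x_at), and the mean over the probe sets of a gene. A group left with 1 array was assumed to vary like the other group. The test of unequal change between probe sets of a gene was added after the values were seen and ran without a variance trend.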

Additional observations from a re-analysis of the deposited data

How the results depend on the processing

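With 2 arrays per group, calls moved with the settings. Of 9 member genes 2 were called, against 1 without the filter on dim probe sets, 1 in the upper 40% of signal (where Mmp23 was not tested), 0 without the variance trend (limma, 4 at an unadjusted p under 0.05) and 1 to 3 with an array left out. Of 20 member probe sets 4 were called, against 0 without the variance trend (7 at an unadjusted p under 0.05) and 3 to 8 with an array left out; 8 was without knockdown replicate 1. In the related lists 9 were called, against 1 without the filter, 0 without the variance trend (22 at an unadjusted p under 0.05) and 4 to 11 with an array left out. Over all genes 392 were called, against 55 without the filter, 607 in the upper 40%, 217 by the mean over probe sets and 311 to 671 with an array left out. Over all probe sets 548 were called, against 63, 950, 857 with the replicate block and 297 to 1429. The replicate numbers were not used as pairs, since deviations from the group means of same-numbered arrays correlated at -0.0025. With the replicate block 2 member genes and 5 member probe sets were called, the added one being Mmp2 1416136 (adjusted p = 0.0248).

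Mmp2 reversed to 0.53 without probe sets shared between transcripts and to 0.038 by the mean over probe sets. With an array left out, Timp2 differences changed sign in 4 probe sets, ranging from -0.30 to 0.18 in 1420924, from -0.090 to 0.24 in 1433662, from -0.65 to 0.14 in 1437081 and from -0.19 to 0.28 in 1450040. Of 254 values of member probe sets under the alternatives, 229 kept their direction and side of the threshold, 7 lost a call, 12 gained one and 6 changed sign. The cause of these shifts was not tested. Signals within background, as for Mmp19, Timp4 and Mmp23 in the knockdown, limit what can be measured there.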
